A study of Mus musculus with 8 samples.

Results

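The H/ACA box small nucleolar RNAs (snoRNAs) were compared between RNA bound to DCP1A and input RNA of the mouse ovary. Members were all rows of the deposited count table whose symbol begins with Snora and a digit, which gave 36 of 23107 rows. Rows with at least 10 counts in 3 or more of the 8 libraries were kept for fold changes, which left 34. Of these, 30 reached 10 counts in all 8 libraries and 4 (Snora2b, Snora20, Snora36b and Snora61) did not. Snora36b and Snora61 passed mainly through the input, where 4 and 3 libraries reached 10 counts, against 2 and 1 RIP libraries. Snora19 and Snora35 had 0 counts in every library, which allows up to 0.116 to 0.229 CPM (counts scaled to a common library size, from 3 counts of a library's total, counting error only). Snora35 lies within Htr2c, a serotonin receptor gene whose row was also at 0 in every library.

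H/ACA snoRNAs are short nucleolar RNAs that fold into a pair of hairpins, joined by a hinge with the H box and followed by the ACA trinucleotide near the 3′ end. Each RNA binds the pseudouridine synthase dyskerin with NHP2, NOP10 and GAR1, and base pairs with ribosomal or spliceosomal RNA to choose the uridine that is converted to pseudouridine. Most mammalian members are not transcribed on their own but are cut from introns of host genes, many of which encode ribosomal proteins or translation factors. DCP1A, a co-activator of mRNA decapping, is a component of cytoplasmic processing bodies.

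The sequences of most members were not used here, but RefSeq hairpins of microRNA genes overlap 3 of the 36 annotated members and so carry parts of their sequence. They are shown because they display the ACA box that names the class, and because 1 of them belongs to Snora36b, among the members with the lowest RIP to input ratios. Capitals mark an ACA exactly 3 bases from the annotated 3′ end of the snoRNA, and the sequences are RNA from RefSeq, GRCm38.p6.
Snora36b, 3′ part of 64 of its 113 bases, plus strand, chr1:185242975-185243038: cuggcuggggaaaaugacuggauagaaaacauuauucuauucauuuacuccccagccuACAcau
Snora19, all 56 annotated bases, minus strand, chr19:60774330-60774385: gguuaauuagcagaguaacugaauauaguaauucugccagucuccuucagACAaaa
Snora34, 5′ part of 73 of its 118 bases, minus strand, chr15:98519762-98519834: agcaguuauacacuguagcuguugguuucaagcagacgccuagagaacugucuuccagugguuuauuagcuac
Both stretches that reach an annotated 3′ end, those of Snora36b and Snora19, carried the ACA at that place, as the class definition requires. Of all 1005 RefSeq mouse microRNA hairpins, 1.59% end in ACANNN on the given strand. The Snora36b part folded into 21 base pairs with 7 unpaired bases at its 3′ end in the lowest-energy structure, and it holds both mature arms of miR-664. The row of Mir664 itself held 0 counts in 7 libraries and 3 in RIP 3. How the authors' counting divided reads between Snora36b and Mir664 is not given.

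The tissue was ovarian cortex of mice at postnatal day 8, and the study asked which transcripts associate with DCP1A in the primary oocyte. The 4 input libraries held 13098153 to 25757618 counts and the 4 libraries of RNA immunoprecipitated with a DCP1A antibody (RIP) held 16325387 to 21269891. Both groups came from the same kind of tissue, and the labels name no strain, genotype or treatment that differs between them. A library made with a control antibody was not analysed here, and the labels do not say whether replicates came from separate animals, so the p-values reflect spread among these libraries alone, which may be technical. All 12 oocyte markers were tested, and their summed share was 0.162% to 0.214% of counts in input and 0.142% to 0.227% in RIP. Granulosa markers (8 of 8 tested) were at 0.122% to 0.231% and 0.144% to 0.196%, and stromal markers (7 of 7) at 0.334% to 0.412% and 0.324% to 0.447%. Of the markers of surface epithelium, endothelium and immune cells, 4 of 5, 4 of 4 and 3 of 4 were tested, and each of these lists made up at most 0.0138% of a library, and the 3 erythroid rows at most 0.00632%. The summed immune markers moved with the comparison, at 9.60 to 16.3 CPM in input and 17.2 to 30.1 CPM in RIP without overlap. Their median log2 fold change was 0.84, with 0 of 3 called. At an unadjusted p under 0.05, 1 was higher, where 3.32% of all rows were. The part of immune cells in the snoRNA results was not tested. In bulk tissue, fewer cells of a type and less RNA per cell cannot be told apart.

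H/ACA snoRNAs made up a small share of every library, and that share spread more widely among inputs than the group means differed. Their summed level was 2506, 2688, 581 and 856 CPM (normalized with TMM factors) in inputs 1 to 4, and 1041, 1042, 663 and 409 CPM in RIP 1 to 4. Inputs 1 and 2 stood above all other libraries, and inputs 3 and 4 lay within the range of the RIP libraries. Inputs 1 and 2 were also the shallower ones, with 13098153 and 13142790 counts against 25757618 and 25030606. Granulosa markers were at 0.176% and 0.231% in inputs 1 and 2, and at 0.122% and 0.127% in inputs 3 and 4. Oocyte markers did not split this way (0.162% and 0.212%, then 0.196% and 0.214%). The part of depth or composition in these levels was not tested. As a share of counts the class was at 0.157% ± 0.090 in input and 0.0763% ± 0.0242 in RIP (SD, n = 4 each). Libraries with the same number had lower summed levels in RIP for numbers 1 (log2 -1.27), 2 (-1.37) and 4 (-1.07). For number 3 the level was slightly higher in RIP (0.19). The numbers are not taken as pairs.

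**Figure D1:**
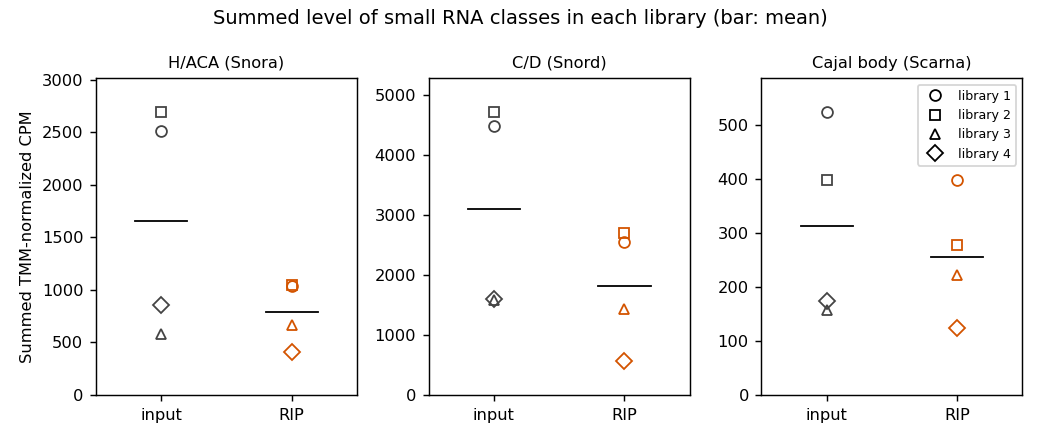
Summed TMM-normalized CPM of H/ACA (Snora, 36 rows), C/D (Snord, 73 rows) and Cajal body (Scarna, 9 rows) RNAs, with 1 point per library, the marker shape giving the library number, and a bar at the mean of the 4 libraries. In the H/ACA panel inputs 1 and 2 (2506 and 2688 CPM) lie above the other 6 libraries, and inputs 3 and 4 lie among the RIP libraries.

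Of the 34 kept H/ACA rows, 32 had a lower level in RIP than in input and 2, Snora70 and Snora7a, a higher one, where 51.3% of all rows were lower and 48.7% higher. None passed the quasi-likelihood test of edgeR, Benjamini-Hochberg adjusted over all 15294 rows tested, where 0.0392% of rows were called lower and 0.0% higher. At an unadjusted p under 0.05, 13 members were lower and 1 higher, and the background of such rows was 4.15% lower and 3.32% higher. All 4 RIP libraries lay below all 4 inputs for 3 members (Snora81, Snora69 and Snora36b) and above them for 0, with 2.43% and 2.85% of all rows in these classes. The median log2 fold change of RIP over input was -1.07 over the members and -0.02 over all rows tested, and the members ranged from -4.29 to 1.79. Under the 4 other scalings the members' median lay between -1.04 and -1.09. By DESeq2, 3 members passed as lower (Snora23, Snora69 and Snora81, with 0.281% of all rows called lower and 0.0785% higher), and by limma voom with sample weights 2 did (Snora23 and Snora81, with 0.131%). Snora69 passed with library sizes without the 10 largest rows (0.0458% of rows called lower) and with no filter (0.022%), and no member passed with filterByExpr (0.0409%) or a mean count of at least 50 (0.0469%). Snora69 and Snora81 passed without input 3 (0.0998%), Snora81 without RIP 1 (0.106% lower, 0.00659% higher) and Snora69 without number 3 of both groups (0.048%). No member passed without input 1 (0.0263%), 2 (0.0263%) or 4 (0.0399%), without RIP 2 (0.0266%), 3 (0.0267%) or 4 (0.0334%), or without number 1 (0.0133%), 2 (0.0067%) or 4 (0.00683%) of both groups. With the replicate number as a block 4 members passed as lower, where 0.327% of rows were called lower and 0.118% higher.

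**Figure D2:**
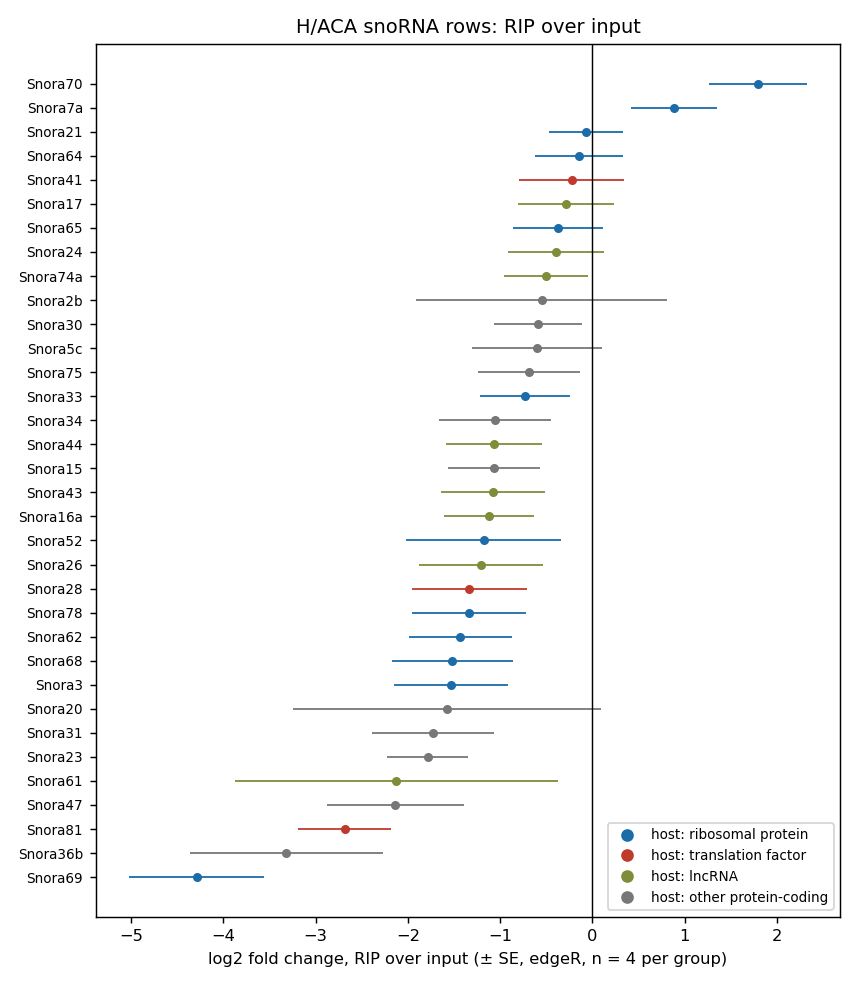
Log2 fold change of RIP over input (edgeR, bars are SE, 4 libraries per group) for the 34 kept H/ACA rows, ordered by value and coloured by the kind of annotated host gene. Values run from -4.29 for Snora69 to 1.79 for Snora70, and only Snora70 and Snora7a lie above 0.

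Snora81 was the most abundant H/ACA RNA of the input and one of the 3 whose groups did not overlap. It lies within Eif4a2, which encodes an initiation factor helicase (mm10 chromosome 16, 23110770 to 23110933). Its level was 958, 841, 216 and 266 CPM in inputs 1 to 4, and 155, 108, 51.1 and 40.5 CPM in RIP 1 to 4. Every RIP library lay below every input. The means were 570 ± 384 and 88.8 ± 53.4 CPM (SD, n = 4 each), a log2 fold change of -2.68 ± 0.50 (SE), and the adjusted p of edgeR's quasi-likelihood test was 0.119. It passed under 8 of 25 alternative settings, all in the same direction, including DESeq2 (adjusted p = 0.0185), limma voom (0.000461), and edgeR without input 3 (0.0182) or without RIP 1 (0.0437). The other passes were with the replicate number or with libraries 1 and 2 against 3 and 4 as a block, and within each set. That grouping follows from these same rows and the numbers are not taken as pairs, so these passes are not independent support.

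Snora69 showed the lowest ratio of all members. Its annotated host is Rpl39, a gene of the large ribosomal subunit (chromosome X, 37082912 to 37083033). It was at 37.4, 41.4, 3.34 and 8.41 CPM in inputs 1 to 4, and at 1.70, 1.14, 0.797 and 0.998 CPM in RIP 1 to 4. All RIP levels were below the lowest input and rested on 17 to 24 counts each, while inputs held 98 to 488 counts. The log2 fold change was -4.29 ± 0.73 (SE, n = 4 each), 19.5-fold lower, and edgeR's adjusted p was 0.0508, just outside the threshold of 0.05. It passed by DESeq2 (adjusted p = 3.15e-07), in edgeR without a filter on low counts (0.0129) and without input 3 (0.00161), but not by limma voom (0.207).

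Snora23 lies within Ipo7, the gene of a nuclear import receptor (chromosome 7, 110046364 to 110046547). It was at 332, 304, 93.5 and 92.6 CPM in inputs 1 to 4, and at 100.2, 63.1, 33.8 and 41.8 CPM in RIP 1 to 4. The groups overlapped only through RIP 1, which lay just above inputs 3 and 4. The log2 fold change was -1.78 ± 0.44 (SE, n = 4 each, edgeR adjusted p = 0.367), and Snora23 passed by DESeq2 (adjusted p = 0.0153) and limma voom (0.03).

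Snora36b, Snora47 and Snora31 had low counts and the next lowest p-values in the same direction. Snora36b, whose 3′ part is printed above, lies within Rab3gap2, a gene of a Rab GTPase regulator. Its counts were 132, 125, 77 and 40 in inputs 1 to 4, and 15, 21, 8 and 2 in RIP 1 to 4, so its log2 fold change of -3.32 ± 1.04 (SE) was imprecise (edgeR adjusted p = 0.601). Its groups did not overlap in CPM, with input 4 at 1.46 and RIP 1 at 1.11. Snora47, within Zbed3 (a zinc finger gene), was at 14.0 and 19.7 CPM in inputs 1 and 2, but at 2.72 and 2.51 in inputs 3 and 4. In RIP 1 to 4 it was at 1.99, 2.29, 2.63 and 1.90 CPM. Only inputs 1 and 2 lay above the RIP range by a wide margin (log2 -2.13 ± 0.74, and -0.21 within libraries 3 and 4). Snora31, within the translationally controlled gene Tpt1, was at 10.8, 13.2, 4.02 and 9.43 CPM in inputs 1 to 4 and at 1.92, 5.24, 3.05 and 1.05 in RIP 1 to 4, so the groups overlapped through input 3 and RIP 2 (log2 -1.73 ± 0.66).

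The 2 members with higher levels in RIP were both annotated within genes of ribosomal proteins. Snora70, within Rpl10 (chromosome X, 74272492 to 74272620), was at 13.4, 21.8, 2.96 and 9.94 CPM in inputs 1 to 4, and at 55.3, 53.8, 42.9 and 13.5 CPM in RIP 1 to 4. Each RIP library was above the input of its own number, and the groups overlapped only because RIP 4 lay below input 2. The log2 fold change was 1.79 ± 0.53 (SE, n = 4 each, 3.46-fold higher, edgeR adjusted p = 0.573). Snora7a, within Rpl32 (chromosome 6, 115807975 to 115808103), was at 53.7, 81.4, 11.4 and 34.1 CPM in inputs 1 to 4, and at 89.1, 118, 87.6 and 37.2 CPM in RIP 1 to 4. It too was higher in the RIP library of each number, but the groups overlapped (log2 0.88 ± 0.46, edgeR adjusted p = 0.694). The numbers are not taken as pairs, so these same-number comparisons for Snora70 and Snora7a only describe the libraries.

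For 3 abundant members the fold change was smaller than its SE. Snora21, within Rpl23, was at 143, 184, 33.1 and 76.6 CPM in inputs 1 to 4 and at 97.6, 149, 95.3 and 73.9 in RIP 1 to 4 (log2 -0.07 ± 0.40). Snora64, within Rps2, was at 97.8, 121, 25.2 and 31.3 CPM in inputs and at 112, 60.5, 48.4 and 28.4 in RIP (log2 -0.14 ± 0.48). Snora65, within Rpl12, was at 128, 148, 18.4 and 54.7 CPM in inputs and at 79.1, 89.5, 72.3 and 29.5 in RIP (log2 -0.37 ± 0.49). In each of these 3 the RIP values fell inside or close to the range of the inputs, whose own spread was several-fold. Snora74a, within the lncRNA gene Snhg4, was at 76.3, 144, 33.2 and 49.4 CPM in inputs and at 45.2, 104, 40.8 and 23.2 in RIP (log2 -0.50 ± 0.46). Snora3, within Rpl27a, was at 103, 93.2, 9.02 and 20.2 CPM in inputs and at 34.2, 19.4, 16.9 and 7.37 in RIP. Only inputs 1 and 2 lay above all RIP libraries for Snora3 (log2 -1.53 ± 0.62). Of the remaining 21 kept members, all had a negative log2 fold change, from -0.23 for Snora41 to -2.12 for Snora61.

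**Figure D3:**
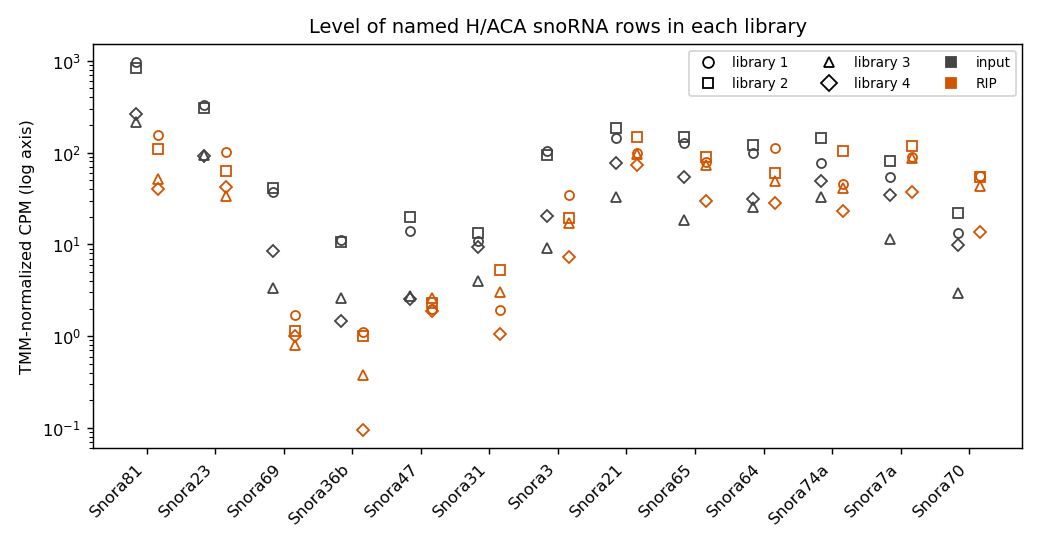
TMM-normalized CPM (log axis) of 13 named H/ACA rows in each library, with inputs in grey, RIP in orange and the marker shape giving the library number. For Snora81 and Snora69 all RIP points lie below all input points, and for Snora70 3 of 4 RIP points lie above all inputs.

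Per length, the order of the members differed between the groups. In input, Snora81 stood first at 3478 ± 2341 CPM per kb of annotated length (SD, n = 4), followed by Snora23 at 1118 ± 710, Snora21 at 853 ± 525 and Snora65 at 741 ± 518. In RIP, Snora21 stood first at 812 ± 249 CPM per kb, followed by Snora7a at 644 ± 262, Snora65 at 573 ± 224, Snora81 at 542 ± 326 and Snora64 at 532 ± 304. The SDs overlap between most neighbours in either order, including Snora81 and Snora23 in input. They also hold differences between libraries that the members share, so the SDs do not decide the ranks. By CPM without length, Snora81 stood first and Snora23 second in every input. Annotated lengths of the kept members ran from 61 to 198 bases with a median of 120.5. Across the 34 members Spearman's rho with the log2 fold change was 0.04 for length and 0.36 for mean level, given as a description of rows that share the same libraries.

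The share of the H/ACA signal held by single members also differed between the groups. Snora81 supplied 38.2%, 31.3%, 37.2% and 31.0% of the summed H/ACA CPM in inputs 1 to 4, and 14.9%, 10.4%, 7.70% and 9.92% in RIP 1 to 4. The groups of shares were far apart, and inputs 3 and 4 had shares like those of inputs 1 and 2 at a much lower summed level. Snora70 supplied 0.755% ± 0.304 in input and 5.07% ± 1.31 in RIP, and Snora7a 2.78% ± 0.93 and 10.6% ± 2.1 (SD, n = 4 each). Shares must add up to 100%, so a smaller share of 1 large member raises the others. With Snora81 left out of the total, Snora70 was still at 0.812% to 1.68% in input and 3.68% to 7.02% in RIP, and Snora7a at 3.14% to 5.78% and 10.1% to 14.3%. On that total the groups also did not overlap for Snora23 (15.7% to 25.6% in input, 5.52% to 11.4% in RIP), Snora69, Snora36b and Snora31, all lower in RIP. Of these, Snora31 did overlap on the whole total. Snora21, Snora64 and Snora65, whose shares of the whole total did not overlap, did overlap once Snora81 was left out. Over all kept members, shares of the whole total did not overlap and were higher in RIP for 7, including Snora24 and Snora30. They were lower without overlap for 5, including Snora68, and overlapped for 22. No share over all rows stands beside these counts, because such shares were taken within the class only. Snora81 went from a mean of 34.4% of this total in input to 10.7% in RIP, which by itself raises the other shares. The counts are therefore not read as a result about the members. With Snora81 left out, only part of the members was examined, so no such count is given for that total.

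**Figure D4:**
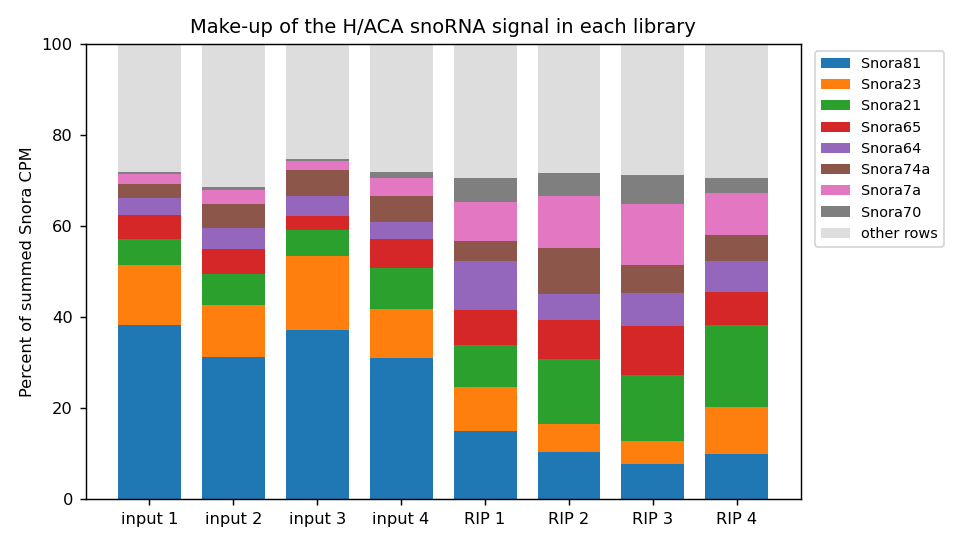
Percent of the summed H/ACA (Snora) CPM held by 8 named rows and by all other rows in each of the 8 libraries. Snora81 holds 31.0% to 38.2% of the signal in inputs and 7.70% to 14.9% in RIP, while the bands of Snora7a and Snora70 are wider in every RIP library.

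The size of the difference depended on the libraries used. Setting libraries 1 and 2 against 3 and 4 follows from the input levels of these same rows and from earlier results. The labels do not call it a batch. Adjusted p-values within these sets, or with the grouping as a block, are therefore not independent support for the members. Within libraries 1 and 2, 31 of 33 members were lower in RIP (49.9% of all rows were), with a median log2 fold change of -1.27. Within libraries 3 and 4, 20 of 31 were lower (51.8% of all rows) and the median was -0.21. The 4 members with adjusted p under 0.05 within libraries 1 and 2 were Snora81, Snora69, Snora23 and Snora3, all lower, where 0.196% of rows were called lower and 0.0151% higher. Within libraries 3 and 4 Snora81 alone passed (log2 -2.40, edgeR adjusted p = 0.0117), where 0.0482% of rows were called lower. Snora81 was the member called in both sets of libraries. Snora69 was at -4.81 and -2.71, Snora23 at -1.98 and -1.30, Snora70 at 1.62 and 2.13, and Snora7a at 0.61 and 1.45 in them. With the grouping as a block over all 8 libraries edgeR called Snora81 (adjusted p = 2.75e-08), Snora69 (0.000788) and Snora23 (0.000158) lower and Snora70 (0.0359) higher, where 0.294% of rows were called lower and 0.0915% higher.

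**Figure D5:**
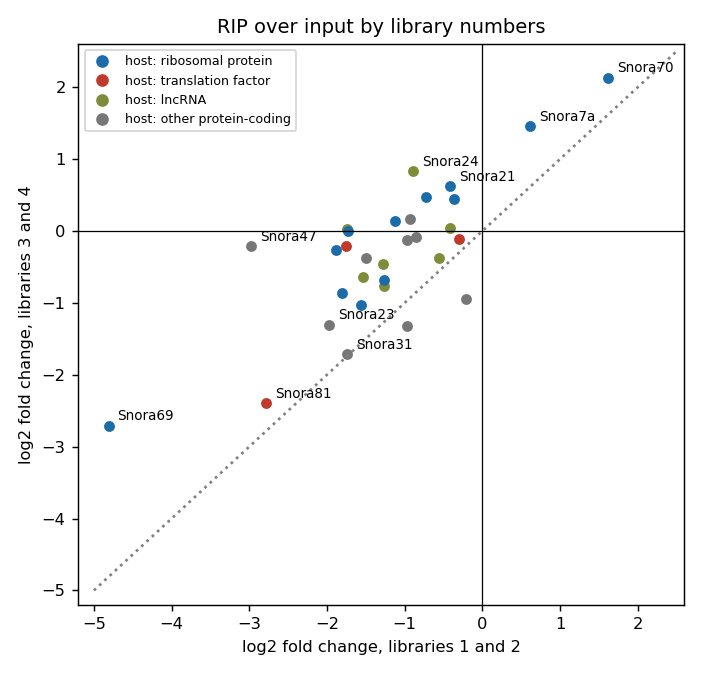
Log2 fold change of RIP over input within libraries 1 and 2 (x axis) and within libraries 3 and 4 (y axis) for the 31 H/ACA rows with a value in both, coloured by kind of host gene, with the line of equal values dotted. Snora69 and Snora81 lie lowest and Snora70 and Snora7a are the 2 rows above 0 on both axes, while most other rows lie above the dotted line, nearer to 0 within libraries 3 and 4.

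Members were also grouped by the kind of host gene. All 36 members lie within the span of an annotated host, 12 within ribosomal protein genes, 4 within genes of translation initiation or elongation factors, 8 within lncRNA genes and 12 within other protein-coding genes. Strand was not compared. The median log2 fold change was -0.96 for the 12 kept members in ribosomal protein genes, -1.33 for 3 in translation factor genes, -1.07 for 8 in lncRNA genes and -1.07 for 11 in other protein-coding genes. The lowest and the highest member, Snora69 and Snora70, both belong to the ribosomal protein hosts. Within libraries 3 and 4 these medians were 0.07, -0.21, -0.37 and -0.38.

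Host transcripts were set beside their snoRNAs for the 18 of 19 host rows that were tested. Ribosomal protein hosts were not analysed here, and Srcap, the annotated host of Snora30, was not among the host rows either. Of these rows, 0 passed edgeR's adjusted test in either direction. At an unadjusted p under 0.05, 0 were higher and 1 lower (Tpt1), where 3.32% and 4.15% of all rows were. The median log2 fold change was -0.35. Eif4a2, the host of Snora81, had a mean of 248 ± 65 CPM in input and of 217 ± 65 in RIP (SD, n = 4 each, log2 -0.19 ± 0.27 SE), against -2.68 for the snoRNA. Ipo7 had means of 70.3 ± 15.3 and 47.4 ± 17.3 CPM (log2 -0.57 ± 0.31), against -1.78 for Snora23. Rab3gap2 was at 78.1 ± 12.5 and 76.2 ± 16.4 CPM (log2 -0.04 ± 0.25), against -3.32 for Snora36b. Zbed3 had a log2 fold change of 0.30 ± 0.23 against -2.13 for Snora47, and Tpt1 one of -0.92 ± 0.29 against -1.73 for Snora31. The log2 ratio of snoRNA to host was tested for 21 such pairs, and the ratio of 2 snoRNAs of the same host for 6 more, by an exact two-sided permutation test over libraries whose smallest p is 0.0286. The lowest Benjamini-Hochberg adjusted p over the 27 pairs was 0.309, and with this smallest p over 27 pairs the adjusted test could hardly pass, so it says little about any pair. The ratio of Snora81 to Eif4a2 was 0.94 ± 1.46 in input and -1.44 ± 1.36 in RIP (log2 of CPM plus 0.5, SD, n = 4 each, exact permutation p = 0.0857, adjusted p = 0.386). By library this ratio was 2.23, 2.14, -0.62 and 0.0047 in inputs 1 to 4, and 0.19, -0.83, -2.38 and -2.73 in RIP 1 to 4. Every RIP library was below the input of its own number, though the numbers are not taken as pairs. The groups overlapped because RIP 1 lay above inputs 3 and 4. Of the 21 snoRNA to host ratios, 2 did not overlap between the groups, both lower in RIP (exact permutation p = 0.0286, adjusted p = 0.309 each). These were Snora47 to Zbed3 (-5.82 ± 1.20 in input, -7.58 ± 0.22 in RIP) and Snora26 to 2700023E23Rik, the row of Dancr (-2.16 ± 0.43 and -3.06 ± 0.79). With 5 CPM added in place of 0.5, only Snora47 to Zbed3 stayed apart. If reads were divided between Snora26 and 2700023E23Rik, which was not tested, their ratio would depend on that division.

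Members within the same host gene were compared with each other. Snora16a and Snora44 of Snhg12 kept nearly the same ratio, log2 0.12 ± 0.32 in input and 0.02 ± 0.23 in RIP (SD, n = 4 each, exact permutation p = 0.686). Snora64 and Snora78 of Rps2 differed more, with a log2 ratio of 1.81 ± 0.46 in input and 2.64 ± 0.28 in RIP (exact permutation p = 0.0571, adjusted p = 0.309). Snora17 and Snora43 of Snhg7 were at 1.37 ± 0.42 and 1.95 ± 1.15 (exact permutation p = 0.371).

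Of the genes of the H/ACA protein partners none passed the test. The synthase gene Dkc1 averaged 39.5 ± 9.3 CPM over inputs and 29.2 ± 1.8 over RIP libraries (SD, n = 4 each, log2 -0.44 ± 0.29 SE), and Nhp2 at 46.7 ± 6.2 and 41.1 ± 8.8 (log2 -0.18 ± 0.27). Gar1 was at 22.6 ± 8.9 and 31.0 ± 7.1 CPM (log2 0.46 ± 0.35), and Nop10 at 22.1 ± 9.9 and 11.3 ± 5.7 (log2 -0.96 ± 0.49). Of the 10 core and assembly genes 0 passed edgeR's adjusted test and 0 had an unadjusted p under 0.05, with a median of -0.14. Of 11 tested factors that trim or tail snoRNA 3′ ends, 0 passed, with a median of -0.21. At an unadjusted p under 0.05, 1 was lower, the exosome helicase gene Skiv2l2 (log2 -0.84 ± 0.35), where 4.15% of all rows were. Of 12 stand-alone pseudouridine synthase genes 0 passed. Rpusd4 was higher (log2 1.06 ± 0.48) and Pus3 lower (-1.96 ± 0.87) at an unadjusted p under 0.05, where 3.32% and 4.15% of all rows were, and the median was 0.02.

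The C/D box snoRNAs gave a similar summary, while the small Cajal body RNAs were more mixed in direction. Of 73 rows of C/D box snoRNAs, which guide ribose methylation, 56 were tested, with 47 lower in RIP, 0 called, 17 lower and 0 higher at an unadjusted p under 0.05, and a median of -1.09. The shares over all rows tested were 51.3% lower in RIP, 0.0392% called lower, and 4.15% lower and 3.32% higher at an unadjusted p under 0.05. Of 9 small Cajal body RNA rows 8 were tested, with 5 lower and 3 higher in RIP, 0 called and a median of -1.21. At an unadjusted p under 0.05, 5 of them were lower and 1 higher (Scarna13). The H/ACA values (13 of 34 lower, median -1.07) lie close to those of the C/D class, and the difference between the classes was not tested. Snord17, Snord71 and Snord85 were at log2 -2.93 ± 0.54, -3.16 ± 0.70 and -2.92 ± 0.66, in the range of Snora81 and Snora36b.

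A few members had counts that were not whole. Snora24 and Snora26 had values that were not whole in all 8 libraries, and their sums with the rows of their hosts (Snhg8, and 2700023E23Rik, the row of Dancr) were whole in all 8 within 0.011 counts. If reads were divided between snoRNA and host, which was not tested, the fold changes of -0.40 ± 0.52 for Snora24 and -1.21 ± 0.67 for Snora26 would depend on that division. Snora47 was also not whole in 8 libraries, and its sum with Zbed3 was whole in 0. Snora81, Snora69, Snora23, Snora36b, Snora31, Snora70 and Snora7a had whole values in every library.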

How the data were processed

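Expected counts (estimated counts) per gene were deposited by the authors in 1 table of 23107 rows for 4 input and 4 RIP libraries in which up to 1.85% of the values per library were fractional (tolerance 1e-09). The genome build was mm10, per the submitters' processing notes, and total RNA libraries were made with a stranded low-input kit, per the labels' protocols. For aligner, counter, annotation and strand setting, the sources used here give nothing. Mature snoRNA reads and intronic reads of a host cannot be told apart. Near-identical snoRNA copies have uncertain counts.

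Counts were rounded. Rows with at least 10 counts in 3 or more libraries were tested for RIP against input with edgeR 4.0.16 in R 4.3.3 (TMM factors, robust quasi-likelihood fit, Benjamini-Hochberg adjustment, threshold 0.05). SEs are the log2 fold change divided by the root of F. Alternatives used DESeq2 1.42.0, limma 3.58.1 voom, other scalings and filters, blocks and left-out libraries. Ratios of snoRNA to host were tested with scipy 1.17.1 after the data were seen, and folding used ViennaRNA 2.7.2. All 36 symbols matched the RefSeq table of GRCm38.p6, which gave positions, lengths and hosts by containment. The test was also run on simulated data for this comparison over 14773 genes. It recovered 11 of 50 genes at 2-fold, 46 of 50 at 4-fold and 49 of 50 at 8-fold. It made 7 false calls, and 0 calls when nothing was changed. The changed genes were drawn only from rows at or above the median level, with noise independent between rows. The kept members had a median SE of 0.56 against 0.41 over all rows tested, so this recovery does not carry over to them.

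Values in each library are given for members past the threshold, the 8 with the highest mean CPM per kb and the 6 with the lowest p in each direction (2 existed upward). Snora62 and Snora78 and other members were named after their values were seen. The members, lists and the grouping of libraries were chosen with earlier results of these data known.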

Additional observations from a re-analysis of the deposited data

How the results depend on the processing

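The number of H/ACA rows called was 0 and stayed at 0 under RLE, upper quartile and library-size scaling, filterByExpr and a mean count of at least 50. It was 1 with library sizes without the 10 largest rows (Snora69) and without a filter (Snora69), 3 by DESeq2, 2 by limma voom, 4 with the number groups as a block, 4 within libraries 1 and 2, and 1 within libraries 3 and 4. Leaving out libraries gave 0 to 2, with 2 without input 3 (Snora69 and Snora81), 1 without RIP 1 (Snora81) and 1 without number 3 (Snora69). The median log2 fold change of -1.07 ranged from -1.34 to -0.64 in the fits without libraries and was -0.21 within libraries 3 and 4. The C/D rows called were 0, with 7 by DESeq2, 2 by limma voom, 9 with the number groups as a block, 8 within libraries 1 and 2, 1 within libraries 3 and 4, and 0 to 2 without a library. No protein gene list gained a call. The cause of these changes was not tested.

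The replicate number as a block called 4 H/ACA rows (Snora81, Snora69, Snora23 and Snora62) and 10 C/D rows, all lower. Over all rows, 0.327% were called lower and 0.118% higher in this fit. Same-numbered libraries deviated together with r of 0.159, 0.0892, 0.156 and 0.11 for numbers 1 to 4, and not every library correlated best with its own number, so the numbers are not taken as pairs. Over all rows tested, the best match of each library in the other group lay within numbers 1 and 2 or within 3 and 4. The main test does not model this grouping, and the fit with it as a block is given above.

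Snora21 changed sign by limma voom (0.21), with the replicate block (0.13), with the number groups as a block (0.11) and within libraries 3 and 4 (0.62), without number 1 (0.12) and without number 2 (0.077) of both groups, and ranged from -0.37 to 0.30 without libraries. Snora64 changed sign with the number groups as a block (0.047), without input 2 (0.28) and within libraries 3 and 4 (0.44), ranging from -0.59 to 0.29 without libraries. Snora65 did so within libraries 3 and 4 (0.48), ranging from -0.74 to 0.015 without libraries (-0.70 without input 3), Snora74a did so without input 2 (0.014, range -1.06 to 0.014), and Nhp2 did so within libraries 1 and 2 (0.031). None of these 5 passed the test in any setting. Snora81, Snora69, Snora23, Snora70 and Snora7a kept their sign in all 25 alternatives, with edgeR, DESeq2 or limma adjusted p from 7.93e-10 to 0.793, 3.15e-07 to 0.793, 4.43e-05 to 0.896, 0.0359 to 1.0 and 0.16 to 1.0. A pseudocount of 5 CPM for the snoRNA to host ratios was chosen after seeing the data, and its adjusted test could hardly pass either. Counts of 2 to 24 in RIP limit the precision for Snora36b and Snora69.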
